A study of Mus musculus with 6 samples.

Results

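The receptors for adiponectin and the genes of AMP-activated protein kinase (AMPK) were examined in kidneys that had been made to produce the hormone. The 10 genes were taken by symbol. They are the receptor genes *Adipor1* and *Adipor2*, the adiponectin-binding cadherin *Cdh13*, the adaptors *Appl1* and *Appl2*, the AMPK subunits *Prkaa1*, *Prkaa2*, *Prkab1* and *Prkag1*, and *Stk11*, which encodes the upstream kinase LKB1. All 10 were found among the 54532 genes of the deposited table through GENCODE M21, and all 10 passed the filter on low counts, which left 16017 genes to test. RNA of whole kidney was sequenced in 6 libraries, and each library pooled 3 male C57BL/6 mice. The 3 KSPAPN libraries came from mice carrying the KsprtTA driver and the TRE-Adiponectin transgene. The 3 Control libraries came from mice carrying KsprtTA alone, which the sample labels call wild type. KsprtTA places the doxycycline-dependent activator under the Ksp-cadherin (*Cdh16*) promoter, which is active in tubular epithelium. Both groups were fed chow with doxycycline at 600 mg/kg for 4 days. Every library is a pool, so the spread reported here is a spread between 3 pools per group, and the age of these mice is not given in the sources used here.

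Adiponectin circulates as trimers, hexamers and larger multimers. AdipoR1 and AdipoR2 are membrane proteins of the PAQR family whose N-terminus lies in the cytoplasm, and T-cadherin, the product of *Cdh13*, is a GPI-anchored protein of endothelium and muscle that binds the larger multimers. APPL1 binds the cytoplasmic end of both receptors and links them to AMPK, and APPL2 is its close relative. AMPK is a heterotrimer of a catalytic α, a scaffolding β and a nucleotide-sensing γ subunit, and is switched on when LKB1 phosphorylates the activation loop of α. That step is a change in the protein, which a measurement of RNA does not show.

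*Adipoq*, the overexpressed gene, had 2, 0 and 2 counts in the Control libraries and 24629, 17483 and 26811 counts in the KSPAPN libraries, so the labels and the transgene matched in all 6. Total counts ranged from 17183358 to 20871173. The 10 proximal tubule markers together reached 26900 to 35800 CPM (counts scaled to the library's normalized total) in Control and 21600 to 28900 in KSPAPN, and the 6 of 8 hepatocyte markers that could be tested (all but *Cps1* and *Cyp7a1*, which were too low) 24.1 to 36.3 and 16.1 to 40.1 CPM. *Cps1* had 0 counts in each Control library and 1, 14 and 31 counts in KSPAPN libraries 1, 2 and 3. *Alb* had 111, 100 and 47 counts in Control and 15, 191 and 213 in KSPAPN. Of the 6 tested hepatocyte markers 3 had a higher and 3 a lower value in KSPAPN. The text on RNA extraction in the labels names liver, while the tissue field names kidney. Across all genes, 424 of 16017 were called at an adjusted p under 0.05 by edgeR's quasi-likelihood test with Benjamini-Hochberg adjustment, of which 63 were higher and 361 lower in KSPAPN.

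The report turns on 2 pairs of related genes, the receptors and the catalytic AMPK subunits, so the 250 bases before their RefSeq start sites are shown (GRCm38.p6, read 5′ to 3′ on the strand of the gene). The windows are chr1:134415128-134415377 on the plus strand for *Adipor1* (the more upstream of its 2 starts in the table), chr6:119388735-119388984 on the minus strand for *Adipor2*, chr15:5143611-5143860 on the plus strand for *Prkaa1*, and chr4:105109899-105110148 on the minus strand for *Prkaa2*. The *Adipor2* window lies inside the GENCODE span of the gene, 119353150 to 119417704. It therefore stands before a RefSeq start within that span and not before the span's 5′ end. Capitals mark motifs found on either strand. The GC box, known for binding Sp1, was searched as GGGCGG, and the CCAAT box by the letters of its name. The half-site of the cyclic AMP response element (CRE) was searched as TGACG. The site of FOXO and other forkhead factors was searched as GTAAACA. Neighbouring GC boxes can overlap.
Adipor1: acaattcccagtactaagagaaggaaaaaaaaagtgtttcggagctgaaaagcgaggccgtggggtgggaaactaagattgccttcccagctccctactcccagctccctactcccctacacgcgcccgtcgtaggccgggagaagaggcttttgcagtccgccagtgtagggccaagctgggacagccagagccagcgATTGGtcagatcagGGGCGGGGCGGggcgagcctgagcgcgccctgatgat
Adipor2: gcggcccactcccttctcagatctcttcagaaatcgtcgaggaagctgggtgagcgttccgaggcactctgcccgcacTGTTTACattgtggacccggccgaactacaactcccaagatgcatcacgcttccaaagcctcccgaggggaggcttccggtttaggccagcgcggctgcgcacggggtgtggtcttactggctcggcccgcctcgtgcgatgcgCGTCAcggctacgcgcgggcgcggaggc
Prkaa1: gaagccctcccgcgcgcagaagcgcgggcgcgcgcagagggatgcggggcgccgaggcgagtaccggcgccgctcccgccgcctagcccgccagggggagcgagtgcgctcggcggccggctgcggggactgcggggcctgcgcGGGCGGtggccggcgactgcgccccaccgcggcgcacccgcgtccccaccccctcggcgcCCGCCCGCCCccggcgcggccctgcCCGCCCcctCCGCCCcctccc
Prkaa2: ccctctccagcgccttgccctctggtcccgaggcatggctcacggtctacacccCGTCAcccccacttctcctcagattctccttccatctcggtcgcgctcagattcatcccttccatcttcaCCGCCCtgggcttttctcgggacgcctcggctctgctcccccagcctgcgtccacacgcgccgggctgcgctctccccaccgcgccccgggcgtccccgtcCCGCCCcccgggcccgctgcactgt

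The RefSeq table held 8 of the 10 members, all but *Cdh13* and *Appl1*. None of the 8 had the letters TATAAA on either strand in these 250 bases, against 12.4% of all 32851 windows that had them. A GC box stood in windows of 5 of the 8 and in 32.7% of all windows, a CCAAT box in 3 of 8 and 33.8%, a CRE half-site in 5 of 8 and 17.8%, and a FOXO site in 1 of 8, *Adipor2*, and 3.17%. A member was counted if any of its windows had the motif, while the percentages count single windows. The CRE half-sites of *Adipor1* lie in its more downstream window, which is not shown. The *Prkaa1* window was the richest in CG among the members, with 45 CG dinucleotides and 85.2% G and C, while that of *Prkaa2* had 24 and 70.0%. All windows together had a median of 6 CG dinucleotides. The *Prkaa1* window carried 5 GC boxes and none of the other motifs, and the *Prkaa2* window carried 2 GC boxes and 1 CRE half-site. These matches describe the letters of the reference and say nothing of which factor was bound in these kidneys.

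None of the 10 members changed at an adjusted p under 0.05, where 2.65% of all genes tested did. DESeq2 also called 0 of 10, against 5.78% of the same genes. At an unadjusted p under 0.05 there were 2 of 10 by edgeR, *Prkaa1* and *Appl1*, both with higher values in KSPAPN, and 2 of 10 by DESeq2. Over all genes tested 18.7% were at that level by edgeR and 16.3% by DESeq2, and 7.52% with a higher value, so 2 of 10 in either direction is near the background. The groups did not overlap, by library CPM, for 5 of the 10 members, with 4 of them (*Prkaa1*, *Appl1*, *Appl2*, *Cdh13*) above and 1 (*Prkag1*) below Control, against 24.5% of all genes tested. The members had a median log2 fold change of 0.022, and all genes tested one of 0.012.

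**Figure D1:**
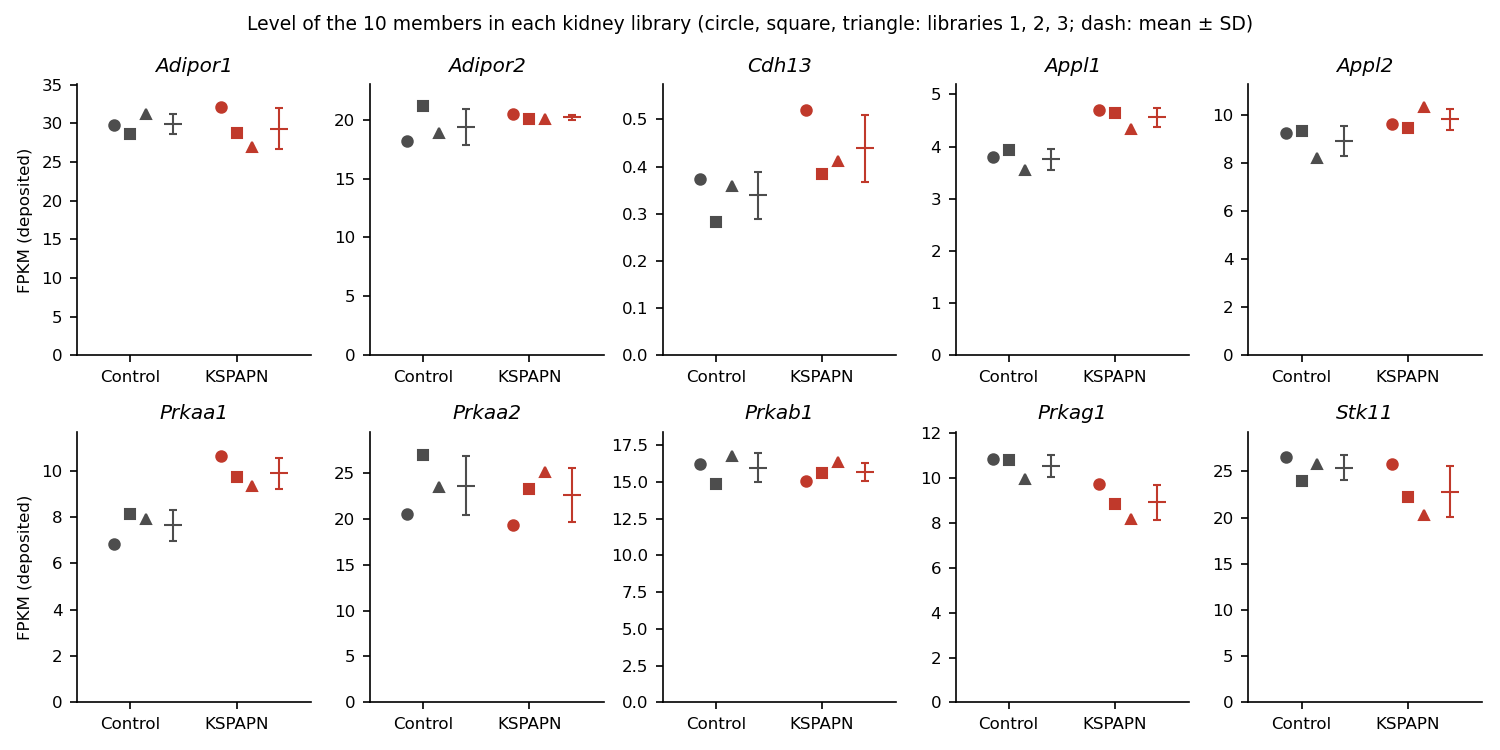
Deposited FPKM of each of the 10 members in the 6 kidney libraries, with Control in grey and KSPAPN in red, circles, squares and triangles for libraries 1, 2 and 3, and a dash with bars for the mean ± SD of 3. The axes start at 0 and differ between genes, and the red points stand clear above the grey ones for *Prkaa1*, *Appl1*, *Appl2* and *Cdh13* and clear below for *Prkag1*.

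By level per length, as deposited FPKM, the members in Control ran from *Adipor1* at 29.9 ± 1.28 (SD, n = 3) down to *Cdh13* at 0.339 ± 0.0496. Between them stood *Stk11* at 25.4 ± 1.36, *Prkaa2* at 23.6 ± 3.21, *Adipor2* at 19.4 ± 1.54, *Prkab1* at 15.9 ± 0.986, *Prkag1* at 10.5 ± 0.491, *Appl2* at 8.92 ± 0.616, *Prkaa1* at 7.64 ± 0.681 and *Appl1* at 3.76 ± 0.201. The ranges of *Stk11* and *Prkaa2* overlapped, as did those of *Prkaa2* and *Adipor2*, and every other pair of neighbours was apart in the 3 Control libraries. In KSPAPN the first 5 places were the same, and *Prkaa1* stood at place 6 with 9.90 ± 0.668, within the range of *Appl2* at 9.80 ± 0.455, which in turn overlapped *Prkag1* at 8.92 ± 0.776.

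The receptors were at nearly the same level in both groups. *Adipor1* (chromosome 1, 134415378 to 134433351, plus strand) had 29.8, 28.7 and 31.2 FPKM in Control and 32.2, 28.8 and 26.9 in KSPAPN. The KSPAPN values spanned the whole Control range and went beyond it at both ends. The log2 fold change was -0.02 (SE 0.097, 95% interval -0.24 to 0.19, adjusted p = 0.924), so the interval reached from 0.848-fold to 1.14-fold. *Adipor2* (chromosome 6, 119353150 to 119417704, minus strand) had 18.2, 21.1 and 18.9 FPKM in Control and 20.5, 20.1 and 20.1 in KSPAPN, and all 3 KSPAPN values lay inside the Control range. Its log2 fold change was 0.06 (SE 0.089, interval -0.13 to 0.26, adjusted p = 0.746), from 0.912-fold to 1.20-fold. The summed level of the receptors was 49.3 ± 1.14 FPKM in Control and 49.5 ± 2.87 in KSPAPN (n = 3 each; two-sided exact permutation test, p = 1.0). *Adipor1* made up 60.7% ± 2.68 of that sum in Control and 59.1% ± 1.92 in KSPAPN (exact permutation p = 0.5). In all 5 such shares were compared, and with 3 libraries against 3 no p can go below 0.1.

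*Cdh13* was the scarcest member and the least precisely measured. T-cadherin had 78, 55 and 71 counts in Control and 136, 79 and 96 in KSPAPN (chromosome 8, 118283733 to 119324921, plus strand). As FPKM these were 0.375, 0.282 and 0.360 against 0.520, 0.385 and 0.412, so the lowest KSPAPN library lay just above the highest Control one. The log2 fold change of 0.38 (SE 0.23) had an interval from -0.13 to 0.89, or 0.916-fold to 1.86-fold, and an adjusted p of 0.403. Because *Cdh13* is known from endothelium and smooth muscle, their markers were set beside it. Of 10 endothelial markers 0 were at an unadjusted p under 0.05 by edgeR and 0 by DESeq2, with a median log2 fold change of 0.035 and a summed level of 470 to 628 CPM in Control and 448 to 588 in KSPAPN. Over all genes tested, 18.7% were at an unadjusted p under 0.05 by edgeR and 16.3% by DESeq2. *Plvap*, which forms the diaphragms of fenestrated endothelium, was the endothelial marker with the smallest p, at -0.27 (adjusted p = 0.429). Of 8 smooth muscle and pericyte markers 1 was at an unadjusted p under 0.05, the pericyte gene *Rgs5* at 0.49 (adjusted p = 0.134, and 0.0176 at 0.67 without KSPAPN library 1), and their sum was 154 to 199 CPM in Control and 185 to 222 in KSPAPN. No marker of either list was at 0. The part of these cells in the *Cdh13* values was not tested, and in whole kidney a change in the number of cells of a type and a change in RNA per cell cannot be told apart.

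The adaptors both had higher values in KSPAPN, without passing the test. *Appl1* (chromosome 14, 26918988 to 26971232, minus strand) had 3.79, 3.94 and 3.54 FPKM in Control and 4.69, 4.64 and 4.34 in KSPAPN. All 3 KSPAPN libraries were above all 3 Control libraries, at 1.22-fold by the fit (log2 0.28, SE 0.096, interval 0.07 to 0.50, unadjusted p = 0.0134, adjusted p = 0.146). *Appl2* (chromosome 10, 83600033 to 83648738, minus strand) had 9.22, 9.31 and 8.21 FPKM against 9.63, 9.45 and 10.3, again without overlap, though the gap between the nearest libraries was small. Its log2 fold change was 0.14 (SE 0.091, interval -0.06 to 0.34, adjusted p = 0.434). The sum of the adaptors was higher in each KSPAPN library than in every Control library, at 12.7 ± 0.81 against 14.4 ± 0.287 FPKM (exact permutation p = 0.1, the smallest possible, and 0.25 adjusted over the 5 sums of paralogues). *Appl1* was 29.7% ± 0.511 of the sum in Control and 31.8% ± 1.85 in KSPAPN (exact permutation p = 0.3).

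Of the catalytic subunits of AMPK neither passed the test. *Prkaa1*, which encodes α1 (chromosome 15, 5143861 to 5181899, plus strand), had 6.86, 8.13 and 7.93 FPKM in Control and 10.6, 9.73 and 9.33 in KSPAPN. The lowest KSPAPN library was above the highest Control library. This was the member with the smallest p, at a log2 fold change of 0.38 (SE 0.106, interval 0.15 to 0.61, unadjusted p = 0.00452, adjusted p = 0.0893), or 1.30-fold with an interval from 1.11-fold to 1.53-fold. *Prkaa2*, which encodes α2 (chromosome 4, 105029874 to 105109890, minus strand), was the more abundant α transcript in every library, with 20.5, 26.9 and 23.4 FPKM in Control and 19.4, 23.3 and 25.1 in KSPAPN. Its groups overlapped almost fully, at a log2 fold change of -0.06 (SE 0.124, interval -0.33 to 0.22, adjusted p = 0.839).

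The share of *Prkaa1* in the α transcripts was 25.1%, 23.2% and 25.3% in Control and 35.5%, 29.5% and 27.1% in KSPAPN. The groups were apart, at a mean of 24.5% ± 1.16 against 30.7% ± 4.31, a difference of 6.15 percentage points (two-sided exact permutation p = 0.1, the smallest possible, and 0.25 after Benjamini-Hochberg adjustment over the 5 shares). KSPAPN library 1 had the highest *Prkaa1* and the lowest *Prkaa2* of all 6 libraries, and without it the difference in share was 3.76 points. The summed α level was 31.3 ± 3.84 FPKM in Control and 32.5 ± 2.27 in KSPAPN (exact permutation p = 0.7). The longest transcript of *Prkaa1* had a GC content of 40.2% and a length of 4655 bases and that of *Prkaa2* 40.7% and 7969 bases, and after a trend of the counts with GC content and length was removed their log2 fold changes were 0.26 and -0.23.

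**Figure D2:**
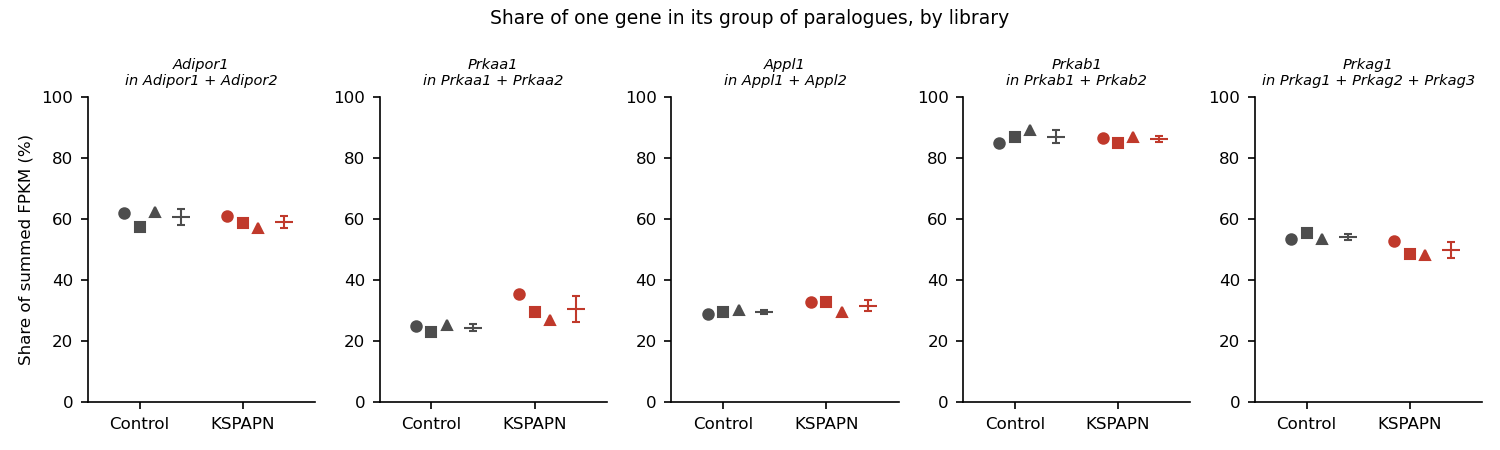
Share of 1 gene in the summed FPKM of its paralogues (percent, axis from 0 to 100) in each library, with Control in grey and KSPAPN in red and the mean ± SD of 3 libraries beside the points. *Prkaa1* takes 23.2% to 25.3% of the α transcripts in Control and 27.1% to 35.5% in KSPAPN, *Prkag1* takes 53.5% to 55.4% and 48.3% to 53.0% of the γ transcripts, and the other 3 shares overlap.

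Among the regulatory subunits, *Prkab1*, the β1 gene (chromosome 5, 116013586 to 116024508, minus strand), had 16.2, 14.9 and 16.8 FPKM in Control and 15.1, 15.6 and 16.3 in KSPAPN, within the Control range in every library. The log2 fold change was -0.02 (SE 0.090, interval -0.22 to 0.18, adjusted p = 0.932). *Prkab2*, the β2 gene, was lower in level, at 2.35 ± 0.426 FPKM in Control and 2.49 ± 0.207 in KSPAPN (log2 fold change 0.09, adjusted p = 0.823), and *Prkab1* held 87.1% ± 2.05 and 86.3% ± 0.956 of the β transcripts (exact permutation p = 0.5).

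*Prkag1*, the γ1 gene (chromosome 15, 98812797 to 98831521, minus strand), had 10.8, 10.8 and 9.97 FPKM in Control and 9.73, 8.83 and 8.19 in KSPAPN. Every KSPAPN library was below every Control library, at a log2 fold change of -0.23 (SE 0.122, interval -0.50 to 0.04, adjusted p = 0.343). *Prkag2*, the γ2 gene, had 6.89, 6.55 and 6.90 FPKM against 7.44, 7.28 and 7.42, without overlap in the other direction (log2 fold change 0.13, adjusted p = 0.457). *Prkag3*, known mainly from skeletal muscle, had 2.51, 2.13 and 1.78 FPKM against 1.19, 1.98 and 1.35, with overlapping groups (log2 fold change -0.51, SE 0.23, adjusted p = 0.270). *Prkag1* held 54.2% ± 1.10 of the γ transcripts in Control and 50.0% ± 2.58 in KSPAPN, a difference of -4.11 percentage points with no overlap (exact permutation p = 0.1, adjusted over the 5 shares 0.25). The summed γ level was 19.4 ± 0.794 FPKM in Control and 17.8 ± 0.746 in KSPAPN, lower in every KSPAPN library (exact permutation p = 0.1, adjusted over the 5 sums 0.25). The β sum was 18.3 ± 1.09 and 18.2 ± 0.714 FPKM (exact permutation p = 0.8). Exons of *Prkag1* and *Prkag2* overlap genes on the opposite strand, and the counting is not stated to use strand. These neighbours were scarce, with a mean of 14.5 counts per library for B130046B21Rik at *Prkag1*, and 22.3 and 12.3 for Prkag2os2 and Prkag2os1 at *Prkag2*.

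*Stk11* (chromosome 10, 80115803 to 80130682, plus strand) had 26.6, 23.9 and 25.8 FPKM in Control and 25.8, 22.3 and 20.3 in KSPAPN. The highest KSPAPN library lay within the Control range while the other two lay below all of Control. The log2 fold change was -0.15 (SE 0.107, interval -0.39 to 0.09, adjusted p = 0.493). Its exons overlap those of the opposite-strand gene *Cbarp*, which had a mean of 221 counts per library, against 1863 to 2756 counts for *Stk11*.

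**Figure D3:**
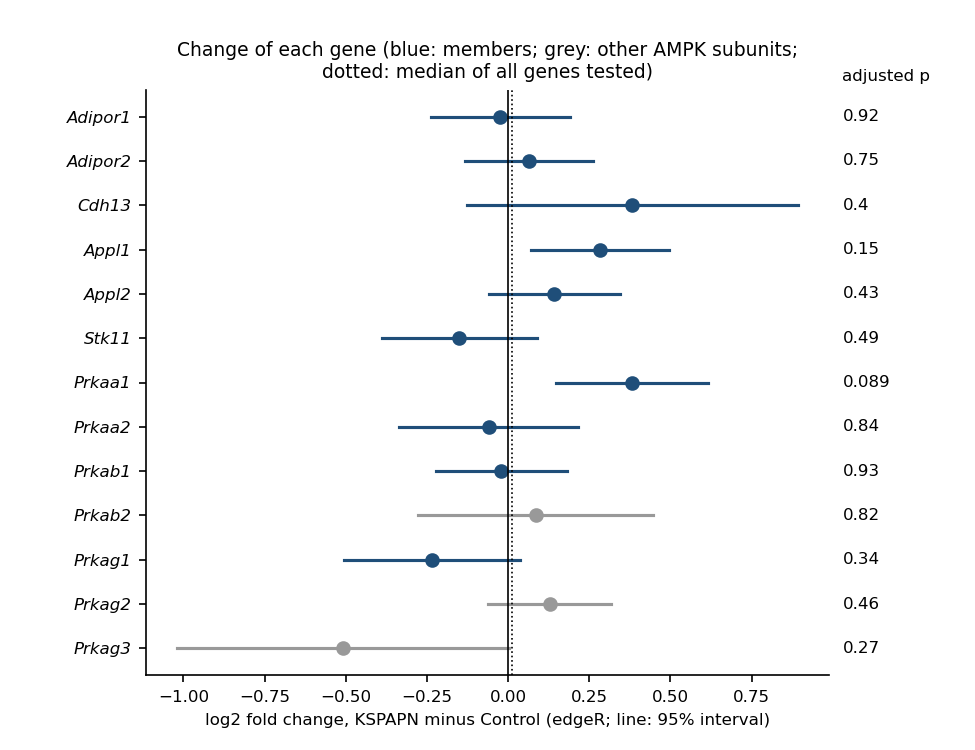
Log2 fold change of KSPAPN against Control from edgeR for the 10 members (blue) and the other 3 AMPK subunits (grey), with 95% intervals as lines, adjusted p at the right, a solid line at 0 and a dotted line at the median of all genes tested. Of the members, only the intervals of *Appl1* and *Prkaa1* lie wholly above 0, and their adjusted p are 0.146 and 0.0893.

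The remaining genes of the pathway were taken from lists of AMPK regulators, LKB1-dependent kinases, AMPK substrates, PAQR proteins, adiponectin-assembly proteins and transcripts linked to the receptors. Without the members and *Adipoq* those reported here came to 66 genes, of which 65 were tested. An adjusted p under 0.05 was reached by 4, *Sesn3*, *Nuak2* and *Pck1* rising and *Paqr7* falling, where 2.65% of all genes tested passed. The higher and lower shares over all genes were 0.393% and 2.25%. The 65 had a median log2 fold change of 0.037. These lists were chosen with earlier results of these data known.

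Upstream of AMPK, 1 of 16 genes passed, *Stk11* included among the 16. *Sesn3* encodes a sestrin, a stress-inducible protein that acts on AMPK and mTORC1, and had 3.83, 3.44 and 3.52 FPKM in Control and 5.09, 4.84 and 4.57 in KSPAPN. The groups were well apart, and it rose by 0.43 on the log2 scale (SE 0.091, adjusted p = 0.0379). Its call held when KSPAPN library 1 was left out and was lost when any of the other 5 libraries was, with log2 fold changes of 0.40 to 0.48 and adjusted p of 0.0859 to 0.124. It was also lost after removal of the GC and length trend, at 0.32 (adjusted p = 0.10), and in the limma fits with pseudocounts of 1 and 0.1 (adjusted p = 0.120 and 0.117). *Sesn1*, a second sestrin, had 4.87, 4.87 and 4.86 FPKM against 5.95, 5.98 and 5.89, at 0.29 (adjusted p = 0.183). *Cab39l*, a relative of the LKB1 scaffold MO25, had a value of 0.25 (adjusted p = 0.239), and *Map3k7*, the kinase TAK1, one of 0.17 (adjusted p = 0.351).

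Of 12 kinases that LKB1 is known to activate besides AMPK, 11 were tested and 1 passed. *Nuak2*, an AMPK-related kinase, had 26.1, 22.0 and 30.6 FPKM in Control and 50.7, 39.8 and 38.3 in KSPAPN, and rose 1.65-fold (log2 0.72, SE 0.145, adjusted p = 0.0313). All KSPAPN libraries were above all Control libraries. The call was lost without Control library 1, Control library 2 or KSPAPN library 3, at 0.61 to 0.80 (adjusted p 0.0719 to 0.156), and also with total counts only (adjusted p = 0.0511) and by limma (0.0753 and 0.0743). *Sik1*, a salt-inducible kinase, had a log2 fold change of -0.49 with overlapping groups (adjusted p = 0.145), *Mark2* one of -0.24 (adjusted p = 0.276) and *Mark3* one of -0.15 (adjusted p = 0.388).

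Among 17 genes whose proteins AMPK phosphorylates or restrains, 0 passed, where 2.65% of all genes tested did. At an unadjusted p under 0.05 by edgeR there were 0 of 17, against 18.7%. A value above 0 was found for 12 of the 17 and below 0 for 5, against 8307 and 7710 of all 16017. Their median log2 fold change was 0.045, and those with the smallest p had values on both sides of 0. *Acaca*, the cytosolic acetyl-CoA carboxylase, had a value of 0.28 (adjusted p = 0.307), *Tfeb*, a regulator of lysosomal genes, -0.28 (adjusted p = 0.285), *Mtfr1l*, a mitochondrial protein, -0.17 (adjusted p = 0.322), and *Rptor*, the Raptor subunit of mTORC1, -0.20 (adjusted p = 0.376).

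The receptors belong to the 11 genes of the PAQR family, of which 1 passed. *Paqr7*, a membrane progestin receptor, had 21.5, 28.1 and 21.6 FPKM in Control and 13.7, 14.0 and 13.1 in KSPAPN. It fell by 0.80 on the log2 scale, to 0.575-fold (SE 0.115, adjusted p = 0.00959), with the nearest libraries of the groups far apart. Without KSPAPN library 3 the adjusted p was 0.0576 at a log2 fold change of -0.77, and under the other 14 alternatives it stayed under 0.05. *Paqr9*, another PAQR gene, had a log2 fold change of -0.31 (adjusted p = 0.102), *Mmd* one of 0.42 (adjusted p = 0.204) and the scarce *Paqr6* one of 0.56 (SE 0.44, adjusted p = 0.527). In Control the level of *Paqr7*, 23.7 ± 3.79 FPKM, was between those of the adiponectin receptors, and in KSPAPN it was 13.6 ± 0.443, below both.

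Beyond the transgene itself, none of the 4 genes for assembly of adiponectin multimers passed, where 2.65% of all genes tested did. A value above 0 was found for 8307 of the 16017 genes tested and for 4 of these 4. They were *Gstk1* (DsbA-L) at a log2 fold change of 0.18 (SE 0.129, adjusted p = 0.495), the endoplasmic reticulum oxidases *Ero1a* at 0.17 (SE 0.114, adjusted p = 0.463) and *Ero1b* at 0.11 (SE 0.148, adjusted p = 0.745), and *Erp44*, which retains adiponectin in the secretory pathway, at 0.10 (SE 0.094, adjusted p = 0.608). The smallest unadjusted p of the 4 by edgeR was 0.167, and DESeq2 called 0.

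Of 8 transcripts that reports on the receptors have tied to AdipoR1 or AdipoR2 signalling, such as PPARα and its targets and the enzymes of gluconeogenesis, 1 passed. *Pck1*, which encodes the cytosolic PEPCK of gluconeogenesis, had 853, 931 and 1366 FPKM in Control and 2256, 1818 and 2137 in KSPAPN, and rose 1.98-fold (log2 0.99, SE 0.183, adjusted p = 0.0248). The call was lost without Control library 1, Control library 2 or KSPAPN library 3, at 0.85 to 0.96 (adjusted p 0.0787 to 0.123), and by limma (0.0782 and 0.0794). *Ppara* had 10.1, 10.5 and 10.1 FPKM in Control and 7.73, 7.94 and 8.25 in KSPAPN, without overlap, at a log2 fold change of -0.35 (adjusted p = 0.0780). *Cat*, catalase, was at -0.36 (adjusted p = 0.120), below Control in every KSPAPN library by CPM, and *G6pc*, the last enzyme of gluconeogenesis, at -0.52 (SE 0.279, adjusted p = 0.348) with overlapping groups. *G6pc* was called without KSPAPN library 3, at -1.02 (adjusted p = 0.0364), and without a filter on low counts, at -0.53 (adjusted p = 7.22e-05). DESeq2 called 2 of the 8, adding *Cat* at an adjusted p of 0.0365, where it called 5.78% of all genes tested.

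**Figure D4:**
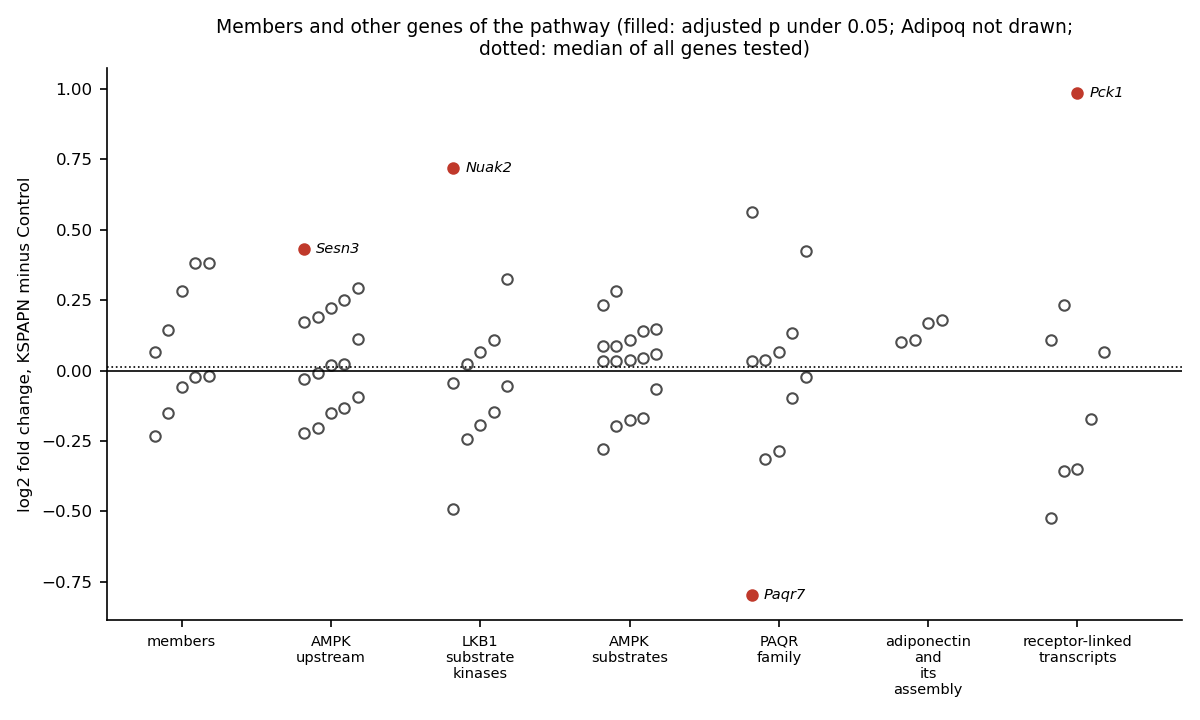
Log2 fold change of KSPAPN against Control for the members and the tested genes of the pathway lists, 1 circle per gene, filled red at an adjusted p under 0.05. The lists are AMPK regulators, LKB1-dependent kinases, AMPK substrates, PAQR proteins, adiponectin assembly and receptor-linked transcripts. A solid line is at 0 and a dotted line at the median of all genes tested. The AMPK subunits outside the members and the cell type markers are not drawn. Genes that stand in more than 1 list are drawn in each, *Adipoq* is left out, and the 4 filled circles are *Sesn3*, *Nuak2*, *Paqr7* and *Pck1*, with none among the 10 members.

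The members were also followed through 15 alternative ways of processing. Of their 150 values, 0 had an adjusted p under 0.05, and the smallest was 0.0557, for *Prkaa1* without a filter on low counts. *Prkaa1*, *Appl1*, *Appl2*, *Cdh13* and *Adipor2* stayed above 0, and *Prkag1* and *Stk11* below 0, under all 15. *Adipor1*, *Prkaa2* and *Prkab1*, whose values lay within 0.06 of 0 on the log2 scale, changed sign under some. Removal of the trend with GC content and length brought *Prkaa1* from 0.38 to 0.26, *Appl1* from 0.28 to 0.13, *Prkag1* from -0.23 to -0.08 and *Stk11* from -0.15 to -0.01. It moved *Prkaa2* from -0.06 to -0.23 and *Appl2* from 0.14 to 0.21, further from 0. In that fit *Prkaa1*, *Prkaa2* and *Appl2* were at an unadjusted p under 0.05 (0.041, 0.0238 and 0.0245 by edgeR), and *Appl1* was not (0.228). These 3 members stood against 2932 of 16004 genes at that level. *Prkaa1*, *Prkaa2* and *Appl1* had the lowest GC content of the members' transcripts, 40.2% to 41.1%, and *Stk11* the highest, 59.5%.

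**Figure D5:**
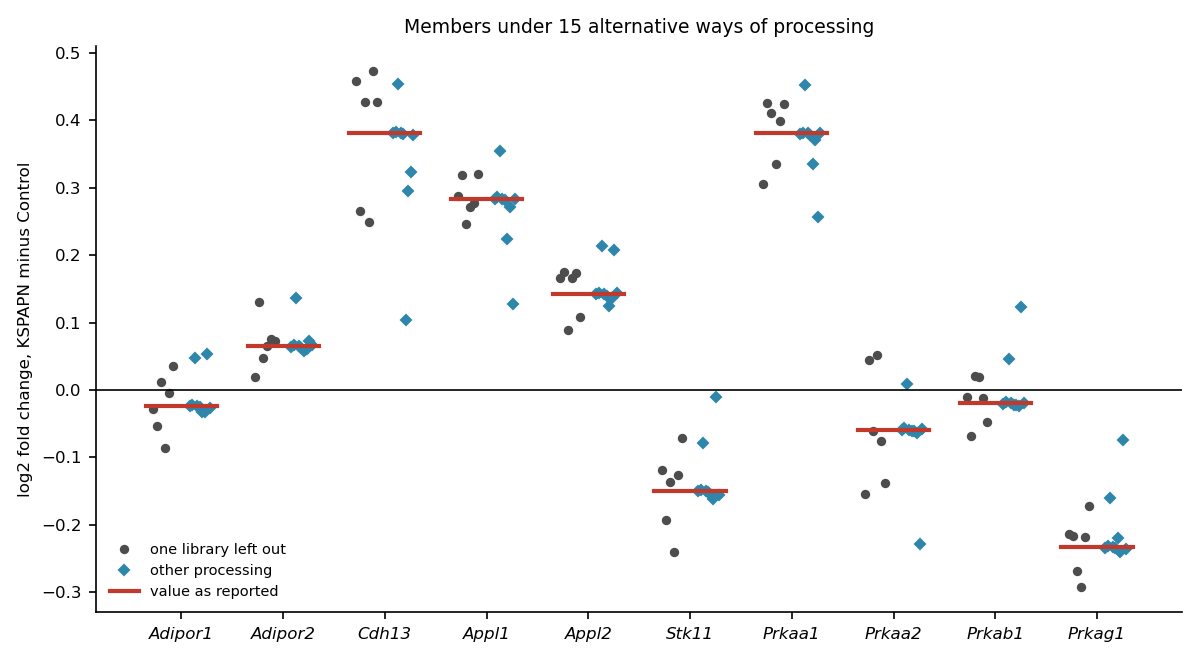
Log2 fold change of each member as reported (red bar), with each of the 6 libraries left out in turn (grey circles) and under 9 other ways of processing (blue diamonds). *Prkaa1* ranges from 0.26 to 0.45 and *Appl1* from 0.13 to 0.35, while *Adipor1*, *Prkaa2* and *Prkab1* lie on both sides of 0.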

How the data were processed

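The authors enriched mRNA from whole kidney with oligo(dT), sequenced it and deposited 1 table with raw counts per gene and FPKM for 6 libraries. The submitters' processing notes name STAR 2.5, TopHat, HTSeq 0.6.1, DESeq2 and edgeR without their roles. Strandedness, annotation and genome build were not given in the sources used here. Tests were run on the deposited counts with edgeR 4.0.16 in R 4.3.3 (TMM factors, minimum count 10, minimum total 15, two-sided quasi-likelihood test, Benjamini-Hochberg adjustment over 16017 genes), and the deposited FPKM gave levels and paralogue shares. The common dispersion was 0.0225. In simulated counts with 200 of 16017 genes changed, edgeR found 84% of the genes moved 2-fold and 100% of the genes moved 4-fold, with 3.66% false calls. Every simulated gene had the common dispersion, and the moved genes were drawn from those above 1 CPM. Changes under 2-fold were not simulated, so these rates do not apply to changes of the size seen in the members. GENCODE M21 (GRCm38) gave gene names and positions.

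Members and lists were chosen with earlier results of these data known. Some genes of the lists are not reported here and were left out of the lists' counts and medians, whatever their values. Named were the members, *Adipoq*, all AMPK subunits and assembly genes, and in each other list the genes past the threshold and the 4 with the smallest p, except that marker genes are mostly given as counts. Alternatives were DESeq2 1.42.0, RLE factors, total counts only, factors without mitochondrial genes and *Adipoq*, no filter, limma 3.58.1 on log2(FPKM + 1) and log2(FPKM + 0.1), removal of a GC and length trend, a replicate block and each library left out. For shares, counts and CPM per longest transcript were the alternatives. Exact matching of 60-base blocks found no stretch that a member's transcripts share with another member. Outside the members, *Appl1* shared 1 block each with 4632411P08Rik, 5930420M18Rik, *Clic1*, Gm9964, Lockd and *Pmf1*. *Appl2* shared 1 block with AC160336.1, and *Cdh13* shared 1 with *Chrna3*. The blocks were taken end to end along the other transcripts, so some shared stretches could be missed.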

Additional observations from a re-analysis of the deposited data

How the results depend on the processing

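The count of members called was 0 under all 15 alternatives. Of 150 member values, 139 kept their direction and 11 did not. With total counts only, *Adipor1* was at 0.0471, *Prkaa2* at 0.00904 and *Prkab1* at 0.0466, and with the GC and length trend removed *Adipor1* was at 0.0536 and *Prkab1* at 0.123. *Umod* was at 0.0304 and 0.0540 in these fits. Over the leave-outs *Adipor1* ranged from -0.0866 to 0.0358 (above 0 without Control library 3 or KSPAPN library 3), *Prkaa2* from -0.154 to 0.0519 (above 0 without Control library 2 or KSPAPN library 1), *Prkab1* from -0.0691 to 0.0209 (above 0 without Control library 3 or KSPAPN library 1), *Prkab2* from -0.00671 to 0.240 (below 0 without Control library 3), *Ero1b* from -0.0383 to 0.276 (below 0 without KSPAPN library 2) and *Umod* from -0.201 to 0.0782 (above 0 without Control library 1 or KSPAPN library 2). The members' median log2 fold change was 0.022, 0.092 with total counts only, 0.098 with the GC trend removed, and 0.0041 to 0.087 over the leave-outs, and it was 0.087 without Control library 2. The median of all genes was 0.012, 0.081 with total counts only, 0.043 with the GC trend removed and 0.0067 without Control library 2.

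Over all genes, 424 were called, against 925 by DESeq2, 266 with total counts only, 1339 of 29418 without a filter, 128 and 119 by limma (FPKM, pseudocount 1 or 0.1), and 39 to 733 over the leave-outs (39 without Control library 1, 125 without Control library 2, 65 without KSPAPN library 3, 276 without KSPAPN library 2, and 733 without KSPAPN library 1). The share of calls that were higher was 14.9%, 26.7% with total counts only and 24.2% with the GC trend removed. The 4 other pathway genes called became 7 without a filter, 3 with total counts only, 1 in both limma fits and 1 to 4 over the leave-outs (1 without Control library 1, Control library 2 or KSPAPN library 3). With the replicate block, 929 genes were called, 4 of the pathway genes and 0 members. Libraries of the same number correlated at 0.0518, 0.144 and 0.169, each best with its own number as a hint from the data, and the labels do not say that the numbers pair the pools, so the block was not used. The shares kept their direction, except that of *Prkab1*, at 0.163 points without Control library 3. Over the leave-outs the shares of *Adipor1*, *Prkaa1*, *Appl1*, *Prkab1* and *Prkag1* ranged from -3.11 to -0.653, 3.76 to 7.94, 1.51 to 3.15, -1.88 to 0.163 and -5.60 to -3.24 points. The cause of these changes was not tested. With 3 pools a group, differences smaller than the distance from an estimate to the ends of its interval could not be told from 0. *Cdh13* had 55 to 136 counts per library and, with an SE of 0.23, the widest interval of the members, and what part of it is depth was not tested.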

Other observations

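Among the markers of nephron segments 1 transporter of the proximal tubule fell and 1 of the thick ascending limb rose, and no difference between segments was tested. The edgeR background was 2.65% of all genes tested at an adjusted p under 0.05 and 18.7% at an unadjusted p under 0.05. Of 10 proximal tubule markers 1 passed. A lower value in KSPAPN was found for 8 of these 10 (median log2 fold change -0.222) and for 7710 of the 16017 genes tested. *Slc22a6*, the organic anion transporter OAT1, had 265, 293 and 257 FPKM in Control and 187, 197 and 206 in KSPAPN and fell by 0.46 on the log2 scale (edgeR adjusted p = 0.0388). The dicarboxylate transporter *Slc13a3* was at -0.49 (adjusted p = 0.0503).

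Of 10 markers of the thick limb, distal tubule and collecting duct 1 passed, and of the 5 at an unadjusted p under 0.05 by edgeR 1 was higher and 4 were lower. *Slc12a1*, the NKCC2 cotransporter of the thick ascending limb, had 195, 182 and 211 FPKM against 307, 278 and 252 and rose by 0.52 (adjusted p = 0.0437). The 4 with lower values were *Slc4a1*, the anion exchanger of intercalated cells, at -0.71 (adjusted p = 0.0893, and -0.99 with an adjusted p of 0.0163 without KSPAPN library 2), the thiazide-sensitive cotransporter *Slc12a3* at -0.36 (adjusted p = 0.207), the water channel *Aqp3* at -0.32 (adjusted p = 0.196) and *Cdh16*, whose promoter drives KsprtTA, at -0.23 (adjusted p = 0.236). *Umod*, a second thick limb gene, was at -0.04 (adjusted p = 0.903). *Cdh16* and *Umod* were chosen after their values were seen. The summed level of the 10 markers was 6070 to 6700 CPM in Control and 5980 to 7240 in KSPAPN.

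The calls of *Slc22a6* and *Slc12a1* held without KSPAPN library 1 and were lost without any of the other 5 libraries, at -0.50 to -0.40 and 0.47 to 0.59, and in both limma fits. That of *Slc22a6* was also lost with total counts only (adjusted p = 0.0521), and that of *Slc12a1* with the GC and length trend removed (adjusted p = 0.0756).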
